A study of Homo sapiens with 6 samples.

Results

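The miR-30 family was examined with both arms of its hairpins, as 10 mature miRs matched by name among the 2588 names of the count table, after knockdown (KD) of the ribosomal protein RPL24. The members were 5 arms from the 5′ side of their hairpins (5p), hsa-miR-30a-5p, hsa-miR-30b-5p, hsa-miR-30c-5p, hsa-miR-30d-5p and hsa-miR-30e-5p, and 5 from the 3′ side (3p), hsa-miR-30a-3p, hsa-miR-30b-3p, hsa-miR-30c-2-3p, hsa-miR-30d-3p and hsa-miR-30e-3p, written below without the prefix for human. The row of miR-30c-1-3p, the other 3p arm of miR-30c, lies outside this choice and is given for comparison. Small RNA was sequenced from HEK293T, a human embryonic kidney cell line, in 3 libraries of cells given siPOOLs (pools of many siRNAs) against RPL24 and 3 libraries of cells given a non-targeting control pool (NC). Either pool was given at 50 nM, with harvest 72 h later by the sample titles, although the time field of the labels reads day 72. The protocol in the labels also describes a miR-608 plasmid given to the cells at 48 h, 24 h before harvest, without saying which samples this covers. The study's methods do not say whether the sequenced cells received this plasmid. The study describes the sequenced knockdown as a separate experiment and reports that miR-608 was not detected in that sequencing. The labels do not say whether the libraries of a group came from separate cultures, so the p-values measure only the spread between these libraries, which may be technical.

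A miR is cut from a hairpin within a longer transcript, first by Drosha in the nucleus and then by Dicer in the cytoplasm, which leaves a duplex of the 5p and the 3p arm. One arm, the guide, is usually kept by an Argonaute protein, and the other, the passenger, is mostly degraded. The guide finds its target mRNAs mainly through its seed, bases 2 to 8 from the 5′ end. The miR-30 guides are broadly expressed, including in the kidney, and are known as regulators of cell fate, of autophagy through BECN1 and of epithelial character through SNAI1. In this text the 5p arms are called guides, since each had more counts than the 3p arm of the same hairpin in every library.

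The mature sequences are shown because they carry the definition of the family and the limit on counting its members apart. Sequences were taken from RefSeq (GRCh38.p14), where 6 of the 10 members were matched, and are written 5′ to 3′ with the seed in capitals. The guides read as follows.
hsa-miR-30a-5p: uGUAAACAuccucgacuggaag
hsa-miR-30c-5p: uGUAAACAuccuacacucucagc
hsa-miR-30e-5p: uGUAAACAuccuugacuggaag
All 3 had the seed GUAAACA. Their first 12 bases were identical. Counted from 1 at the 5′ end, miR-30a-5p and miR-30e-5p differed at 1 of 22 positions, C13U from miR-30a-5p to miR-30e-5p. MiR-30c-5p differed from each of them at 5 positions.

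The 3p arms fell into groups with different seeds, and their sequences read as follows.
hsa-miR-30a-3p: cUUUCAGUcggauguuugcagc
hsa-miR-30e-3p: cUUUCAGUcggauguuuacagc
hsa-miR-30c-2-3p: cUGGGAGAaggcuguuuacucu
hsa-miR-30c-1-3p: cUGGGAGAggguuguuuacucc
MiR-30a-3p and miR-30e-3p shared the seed UUUCAGU and differed at 1 of 22 positions, G18A from miR-30a-3p to miR-30e-3p. Both 3p arms of miR-30c had the seed UGGGAGA and differed from each other at 3 positions. In the RefSeq table that seed was carried by 1 further miR, miR-6788-5p, which had 0 counts in all 6 libraries. How reads that fit several miRs were assigned is not given in the sources used here. The counts of miR-30a and miR-30e are therefore uncertain where an error at the differing base would move a read between them. The sequences of the miR-30b and miR-30d arms were not matched, so their likeness to the other members was not examined. Their counts, including those of the abundant miR-30d-5p, may have the same limit.

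The hairpin of miR-30e is shown with its 5p and 3p arms in capitals, because its arms gave the smallest p-values of the family.
MIR30E: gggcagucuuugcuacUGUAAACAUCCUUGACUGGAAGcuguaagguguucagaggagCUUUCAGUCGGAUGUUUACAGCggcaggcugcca
The longest stretch of exact base pairing between the arms of miR-30e was 11 bases, from base 1 to base 11 of the guide, and thus covered the seed. In miR-30a it was 8 bases, from base 4 to base 11. In both hairpins of miR-30c it was 7 bases, the seed itself.

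In GENCODE 29 on GRCh38, the plus strand of chromosome 1 holds MIR30E from 40754355 to 40754446 and MIR30C1 from 40757284 to 40757372, 2837 bases apart. Both lie in introns of NFYC, which codes for a subunit of the transcription factor NF-Y, in 16 of its transcripts and in an exon of 0. The minus strand of chromosome 6 holds MIR30A from 71403551 to 71403621 and MIR30C2 from 71376960 to 71377031, 26519 bases apart, within introns of 2 transcripts of the lincRNA gene LINC00472 and of 1 transcript of the overlapping lincRNA gene AL136164.2. MiR-30c-5p can come from MIR30C1 and from MIR30C2, which the counts cannot tell apart.

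The RPL24 KD libraries held 406905 to 611745 counts and the NC libraries 398721 to 565104. The floor of 3 counts stood at 4.90 to 7.52 CPM depending on the library, CPM being the usual scaling of counts to a common library total. Libraries 1 and 2 of either group have their number in the labels. The remaining library of either group has a number absent from the labels and is called unnumbered. Pairs of NC libraries differed from each other more than pairs of RPL24 KD libraries did, with a chi-square per degree of freedom between 9.72 and 17.4 against 2.18 to 2.50. RPL24 mRNA is not measured by small RNA libraries, so its depletion was not checked here. All 360 miRs that passed the filter on low counts were compared between the groups with edgeR's quasi-likelihood test, after TMM scaling, and p-values were adjusted over all of them by Benjamini-Hochberg. Differential expression (DE) was called where the adjusted p was below 0.05, in 18 of the 360 miRs (5.00%), 12 higher and 6 lower after RPL24 KD. With total counts in place of TMM the split was 10 higher and 18 lower.

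The family was abundant in HEK293T cells and was dominated by miR-30d-5p. All 10 members passed the filter, and no member was DE. The guides took 4.46% to 4.70% of all counts in the RPL24 KD libraries and 4.31% to 4.49% in the NC libraries, with 95% Wilson intervals of 4.65% to 4.76% for the highest library and 4.25% to 4.38% for the lowest. These intervals cover counting error only, not the spread between libraries. They treat reads as independent, which reads may not be, so they may be too narrow. As shares of all counts the groups overlapped, since NC 1 lay above the unnumbered RPL24 KD library.

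Levels are given in normalized CPM, in which the total of a library over the 360 tested miRs is multiplied by its TMM factor. The mature miRs are 22 or 23 bases long where the sequence was matched, and a read comes from 1 molecule. CPM was therefore not divided by length, and unequal ligation of different sequences was not corrected. MiR-30d-5p was the most abundant member, with 22940 CPM on average over the 6 libraries, and held rank 10 of all miRs in the table. MiR-30c-5p followed with 8485 CPM, miR-30a-5p with 7049 and miR-30e-5p with 5816. The ranges of miR-30c-5p and miR-30a-5p over the libraries overlapped, so their order was not larger than the spread, while the other neighbours among these 4 guides did not overlap.

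Next came miR-30e-3p with 2685 CPM, miR-30a-3p with 1253 and, as the least abundant guide, miR-30b-5p with 467. Passengers could thus exceed a guide of the same family, and the ranges of these 3 members did not overlap. The lowest members were miR-30c-2-3p with 111 CPM, miR-30d-3p with 82.1 and miR-30b-3p with 37.2. The first 2 of these overlapped in range. MiR-30c-1-3p had 47.9 CPM and overlapped miR-30b-3p. From miR-30d-5p to miR-30b-3p, no member fell under the floor in any library, and the lowest single value was 14 counts, for miR-30b-3p in the unnumbered NC library.

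**Figure D1:**
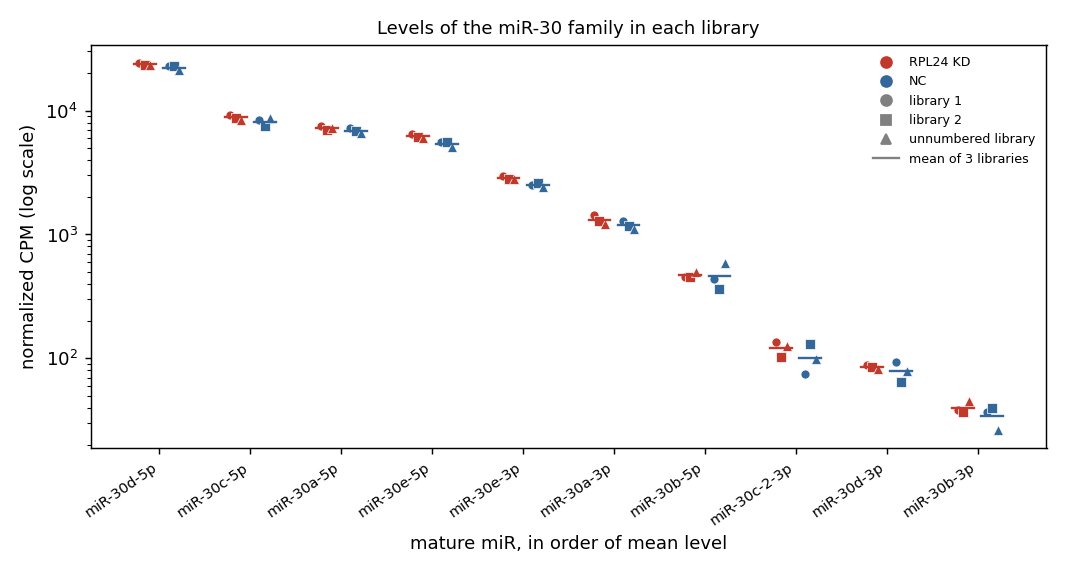
Normalized CPM (log scale) of the 10 members in each library, ordered by mean level, with RPL24 KD in red and NC in blue. Symbols mark the library and bars the mean of 3 libraries. The groups lie close to each other for every member, while the members span from 37.2 to 22940 CPM on average.

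MiR-30e-5p, from the NFYC hairpin MIR30E, had the smallest p-value of the guides. It had 6521 CPM in RPL24 KD 1, 6123 in RPL24 KD 2 and 6052 in the unnumbered RPL24 KD library, against 5529 in NC 1, 5600 in NC 2 and 5073 in the unnumbered NC library. All 3 RPL24 KD libraries lay above all 3 NC libraries. The means were 6232 ± 253 CPM (SD, n = 3) and 5401 ± 286 (SD, n = 3). The log2 fold change was 0.21 (standard error 0.0651, 95% interval from 0.068 to 0.35), a fold of 1.15, with an unadjusted p of 0.00668 and an adjusted p of 0.0729 in edgeR's quasi-likelihood test. MiR-30e-5p was therefore not DE, and it ranked number 33 of the 360 miRs by p-value. In DESeq2 its adjusted p was 0.0593. Over the 6 fits with 1 library removed its log2 fold change was 0.15 to 0.23, with adjusted p-values between 0.0654 and 0.289 in edgeR.

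MiR-30e-3p, the passenger of the same hairpin, had values of similar size. It had 2979, 2807 and 2811 CPM in RPL24 KD 1, RPL24 KD 2 and the unnumbered RPL24 KD library, and 2494, 2602 and 2417 CPM in the NC libraries in the same order. The groups did not overlap here either. The log2 fold change was 0.20 (standard error 0.0685, 95% interval from 0.048 to 0.34), with an unadjusted p of 0.0128 and an adjusted p of 0.112 in edgeR. With 1 library removed it was 0.16 to 0.22.

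MiR-30d-5p, the most abundant guide, was the third member whose groups did not overlap. It had 24229, 23474 and 23278 CPM in the RPL24 KD libraries and 22790, 22736 and 21135 CPM in the NC libraries, again in the order 1, 2 and unnumbered. The gap between the groups was small beside the distance of the unnumbered NC library from the other NC libraries. The log2 fold change was 0.091 (standard error 0.0525, 95% interval from -0.022 to 0.20, adjusted p = 0.337, edgeR). With 1 library removed it was 0.044 to 0.11, lowest without the unnumbered NC library.

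MiR-30a-5p and miR-30c-5p overlapped between the groups. MiR-30a-5p had 7556, 6978 and 7195 CPM in RPL24 KD and 7238, 6792 and 6537 in NC, a log2 fold change of 0.079 (95% interval from -0.057 to 0.22, adjusted p = 0.516, edgeR). NC 1 lay above 2 of the RPL24 KD libraries. MiR-30c-5p had 9255, 8707 and 8460 CPM in RPL24 KD and 8351, 7487 and 8651 in NC, a log2 fold change of 0.11 (95% interval from -0.035 to 0.25, adjusted p = 0.379, edgeR). Here the unnumbered NC library lay above the unnumbered RPL24 KD library. Removing 1 library moved miR-30a-5p to between 0.031 (without the unnumbered NC library) and 0.12, with 0.047 without RPL24 KD 1. It moved miR-30c-5p to between 0.052 (without NC 2) and 0.14, with 0.072 without RPL24 KD 1.

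MiR-30b-5p was the least abundant guide and the one with the widest spread. It had 455, 456 and 499 CPM in RPL24 KD and 436, 362 and 593 in NC. The unnumbered NC library was the highest of all 6 and NC 2 the lowest, so that the RPL24 KD values lay inside the NC range. The log2 fold change was -0.00013 (95% interval from -0.30 to 0.30, adjusted p = 0.999, edgeR), and without the unnumbered NC library it was 0.19 (adjusted p = 0.350, edgeR).

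MiR-30a-3p had 1437, 1286 and 1225 CPM in RPL24 KD and 1289, 1172 and 1107 in NC, a log2 fold change of 0.15 (95% interval from -0.045 to 0.34, adjusted p = 0.372, edgeR). The groups overlapped, and with 1 library removed the value was 0.078 (without RPL24 KD 1) to 0.21, with 0.081 without the unnumbered NC library. The remaining passengers had few counts and wide intervals. MiR-30c-2-3p, with 43 to 74 counts a library, had a log2 fold change of 0.29 (95% interval from -0.14 to 0.71, adjusted p = 0.421, edgeR), which was 0.095 without NC 1, 0.19 without RPL24 KD 1 and 0.48 without NC 2. MiR-30d-3p, with 26 to 53 counts, had 0.083 (95% interval from -0.31 to 0.47), and miR-30b-3p, with 14 to 22 counts, had 0.21 (95% interval from -0.35 to 0.78). MiR-30c-1-3p, outside the chosen members, had 14 to 35 counts and a log2 fold change of -0.16 (95% interval from -0.68 to 0.36, adjusted p = 0.745, edgeR). Its hairpin MIR30C1 lies within NFYC as MIR30E does, and both arms of miR-30e had values above 0. The interval of miR-30c-1-3p includes the values of both arms of miR-30e, and without NC 1 its own value was 0.011. A difference between these hairpins was not tested.

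**Figure D2:**
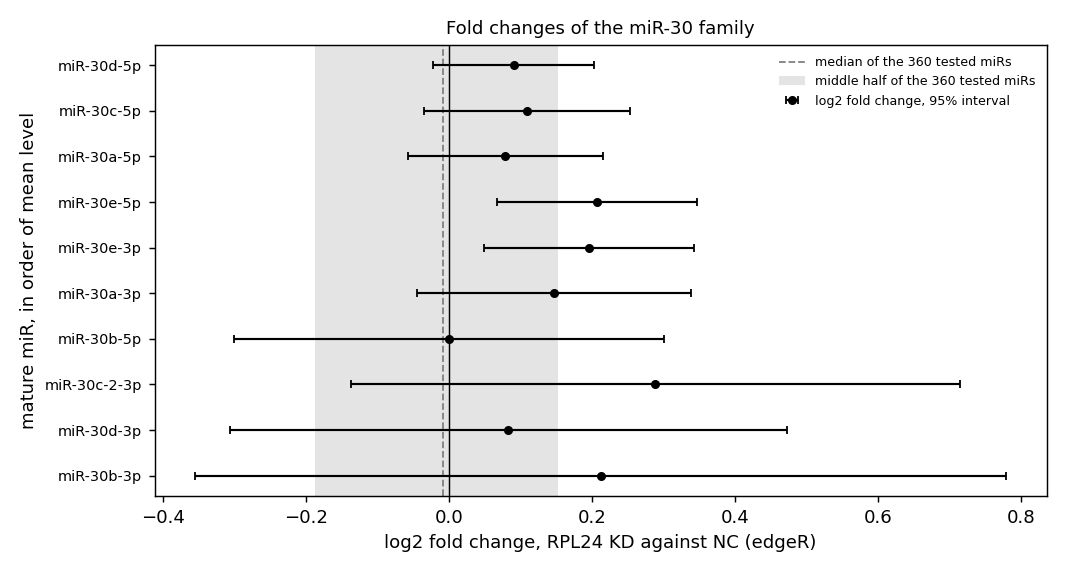
RPL24 KD against NC as log2 fold change (x axis, edgeR) for the 10 members in order of mean level, with 95% intervals as bars. The dashed line marks the median of the 360 tested miRs (-0.0084) and the grey band their middle 50% (from -0.19 to 0.15). The intervals of miR-30e-5p and miR-30e-3p lie above 0, and those of the other 8 members include 0.

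Over the family, 0 of 10 members were DE by edgeR where 5.00% of all tested miRs were, and 0 were DE by DESeq2, which called 20 of all tested miRs. At an unadjusted p under 0.05 there were 2 members, both arms of miR-30e, in either tool. Over all tested miRs 23.6% reached that in edgeR and 15.6% in DESeq2, so the share of members was near the background. The groups did not overlap in 3 of the 10 members, with RPL24 KD higher in each of the 3, beside 27.5% of the 360 miRs in either direction and 14.7% with RPL24 KD higher. All 3 were abundant, and among the 166 miRs that averaged 100 counts or more a library the groups did not overlap in 38.0%. The log2 fold change was above 0 in 9 of 10 members against 47.2% of all tested miRs and 53.0% of the 166 abundant miRs. The exception, miR-30b-5p, had a value near 0. The median was 0.13 over the members, 0.091 over the guides and 0.20 over the passengers, beside -0.0084 over all 360 miRs. The median was 0.016 over the 166 abundant miRs. Without RPL24 KD 1 the median of the members was 0.076. With total counts in place of TMM the median of the members was 0.079 beside -0.058 over all miRs, and 9 of 10 members were above 0. These counts describe a family chosen with results of these data known, and its members share seeds, hairpins and may share reads.

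Summed over the 5 guides, the level was 48016, 45738 and 45483 CPM in RPL24 KD and 44344, 42977 and 41988 in NC. The groups did not overlap on this scale, with means of 46412 ± 1395 CPM (SD, n = 3) and 43103 ± 1183 (SD, n = 3), a fold of 1.08. Summed over the 5 passengers the level was 4678, 4318 and 4289 CPM in RPL24 KD and 3988, 4010 and 3729 in NC, a fold of 1.13. Most of it was miR-30a-3p and miR-30e-3p, together 4182 of 4428 CPM on average in RPL24 KD and 3694 of 3909 in NC. The sum of miR-30a-5p and miR-30e-5p was 14077, 13101 and 13247 CPM in RPL24 KD and 12767, 12391 and 11610 in NC, a log2 ratio of 0.14. If each read was counted once, this sum does not depend on how reads were split between those near-identical guides. Whether each read was counted once is not given in the sources used here. MiR-365a-3p and miR-365b-3p had the same log2 fold change (-0.0053) and standard error (0.163) in the edgeR fit. Some reads may therefore have been counted under more than 1 name. Sums over chosen members were not tested. In bulk RNA a change in the amount of a miR cannot be told apart from a change in the other miRs of the library.

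The make-up of the guide pool, given as the share of each guide in the counts of all 5, overlapped between the groups for 4 of the guides. MiR-30d-5p made up 51.0% ± 0.462 (SD, n = 3) of the guide counts in RPL24 KD and 51.5% ± 1.29 (SD, n = 3) in NC. MiR-30c-5p made up 19.0% ± 0.342 (SD, n = 3) and 19.0% ± 1.59 (SD, n = 3), and miR-30a-5p 15.6% ± 0.303 (SD, n = 3) and 15.9% ± 0.386 (SD, n = 3). MiR-30b-5p made up about 1 in 100 guide counts, 1.01% ± 0.0753 (SD, n = 3) and 1.08% ± 0.297 (SD, n = 3). The share of miR-30c-5p had an SD of 1.59 in NC and 0.342 in RPL24 KD, so the NC libraries were the more spread ones here too.

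MiR-30e-5p was the guide whose share did not overlap between the groups. Shares within pools of other miRs were not computed for comparison. In normalized CPM, another measure, the groups did not overlap in 27.5% of the 360 tested miRs. It made up 13.6%, 13.4% and 13.3% of the guide counts in RPL24 KD 1, RPL24 KD 2 and the unnumbered RPL24 KD library, and 12.5%, 13.0% and 12.1% in the NC libraries in that order. Wilson intervals of these shares reached at most 0.503 percentage points to either side, so the interval of NC 2 overlapped those of the RPL24 KD libraries. Shares within the pool do not depend on library scaling, but they are tied to each other because they add up to the whole.

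**Figure D3:**
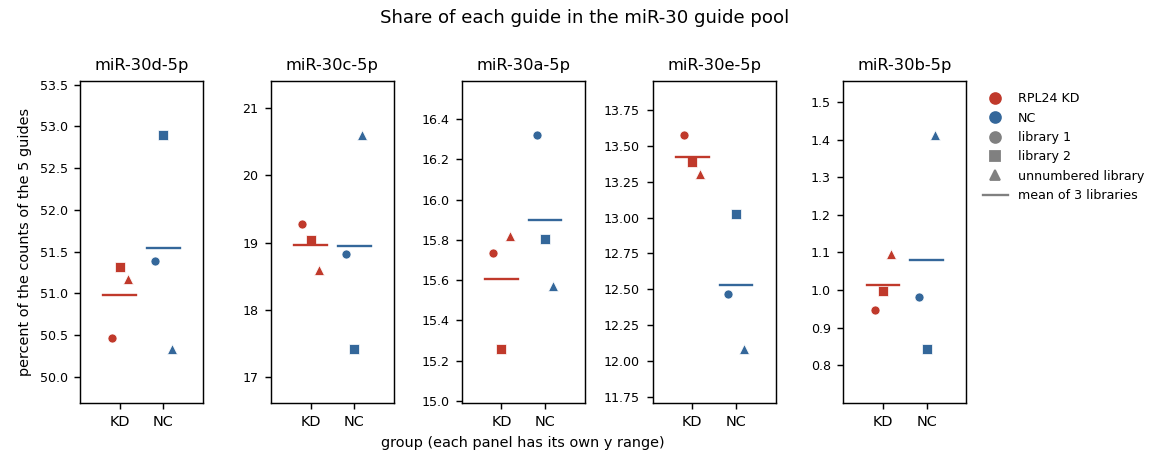
Share of each guide in the counts of the 5 guides, in percent, for each library. Each panel has its own y range that does not start at 0, symbols mark the library and bars the mean of 3 libraries. In the miR-30e-5p panel the RPL24 KD libraries lie between 13.3% and 13.6% and the NC libraries between 12.1% and 13.0%, and the groups overlap in the other panels.

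Of the 10 ratios between the counts of 2 guides, 2 did not overlap between the groups, beside 22.8% of the ratios between any 2 of the 360 tested miRs. Both involved miR-30e-5p. The ratio of miR-30a-5p to miR-30e-5p, which differ by 1 base, was 1.16, 1.14 and 1.19 in RPL24 KD and 1.31, 1.21 and 1.29 in NC. That of miR-30d-5p to miR-30e-5p was 3.72, 3.83 and 3.85 in RPL24 KD and 4.12, 4.06 and 4.17 in NC. The share of such pairs was near the background.

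The arms of a hairpin were compared through the 3p counts in percent of the 5p counts, a measure that asks whether the balance of the arms differed between the groups. It differed between hairpins by far more than between the groups. MiR-30e had the most even arms, with 46.0% ± 0.402 (SD, n = 3) in RPL24 KD and 46.4% ± 1.27 (SD, n = 3) in NC. MiR-30a had 18.2% ± 1.02 (SD, n = 3) and 17.3% ± 0.440 (SD, n = 3), and miR-30b 8.70% ± 0.543 (SD, n = 3) and 8.19% ± 3.38 (SD, n = 3). MiR-30d had the most uneven arms, with 0.364% ± 0.00294 (SD, n = 3) and 0.361% ± 0.0621 (SD, n = 3). MiR-30d, with the most abundant guide, and miR-30e thus lay at opposite ends. The median of all 84 hairpins whose arms were both tested was 59.3%, above every miR-30 hairpin. These 84 were taken whichever arm had more counts, so their median is not that of passengers to guides.

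MiR-30c-5p comes from both MIR30C1 and MIR30C2, so its ratios are not those of a single hairpin. Its 3p arm from MIR30C2 had 1.39% ± 0.167 (SD, n = 3) of the guide counts in RPL24 KD and 1.27% ± 0.434 (SD, n = 3) in NC, and that from MIR30C1 0.518% ± 0.0797 (SD, n = 3) and 0.640% ± 0.131 (SD, n = 3).

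**Figure D4:**
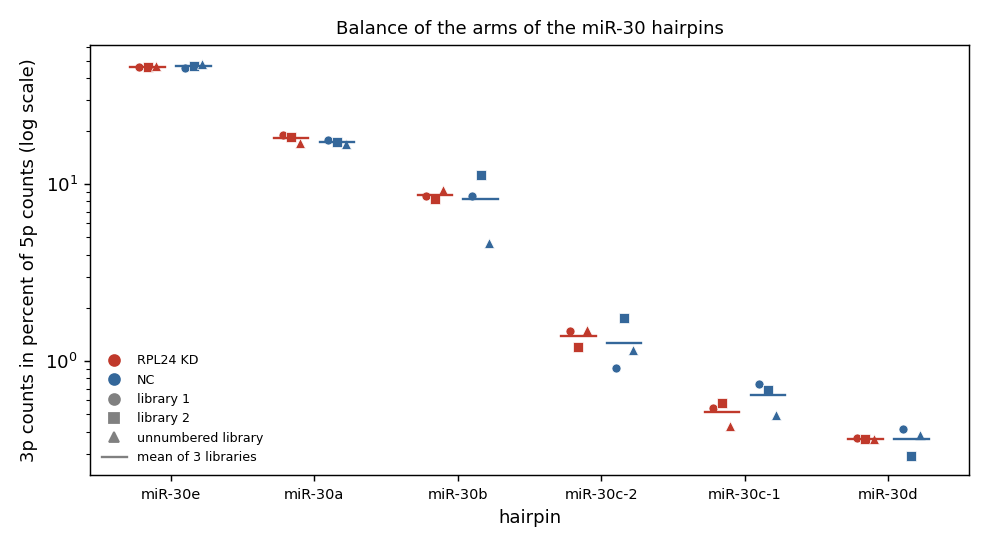
Counts of the 3p arm in percent of the counts of the 5p arm (log scale) for each miR-30 hairpin and library. Symbols mark the library and bars the mean of 3 libraries. The hairpins spread from 0.361% to 46.4% (means in NC), and for each hairpin the 2 groups overlap.

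In limma's test over the 84 hairpins, on log2 of the 3p count over the 5p count with a pseudocount of 0.5, 0 hairpins were called (0.00%) and 6 had an unadjusted p under 0.05, none of them of the miR-30 family. The groups overlapped in every miR-30 hairpin, and did not overlap in 8 of the 84 (9.52%). For miR-30e the log2 ratio differed by -0.013 (RPL24 KD minus NC, 95% interval from -0.26 to 0.24, adjusted p = 0.982, limma), and for miR-30a by 0.066 (95% interval from -0.20 to 0.33, adjusted p = 0.866, limma). The other hairpins had wider intervals, up to -0.62 to 0.98 for miR-30b. A shift of the arms smaller than these intervals was not detectable at this depth and number of libraries.

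Among the 159 miRs outside the family that averaged 100 counts or more, the 3 whose log2 CPM over the 6 libraries was most like the summed guide level were let-7e-5p (Pearson r = 0.97), miR-99b-5p (r = 0.96) and let-7a-5p (r = 0.95). The median r over all 159 was 0.052. These r describe 6 libraries of both groups that share the same scaling, so they include any difference between the groups. The log2 fold changes of these miRs were 0.30, 0.16 and 0.22, and none was DE (adjusted p = 0.0779, 0.185 and 0.0729, edgeR).

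**Figure D5:**
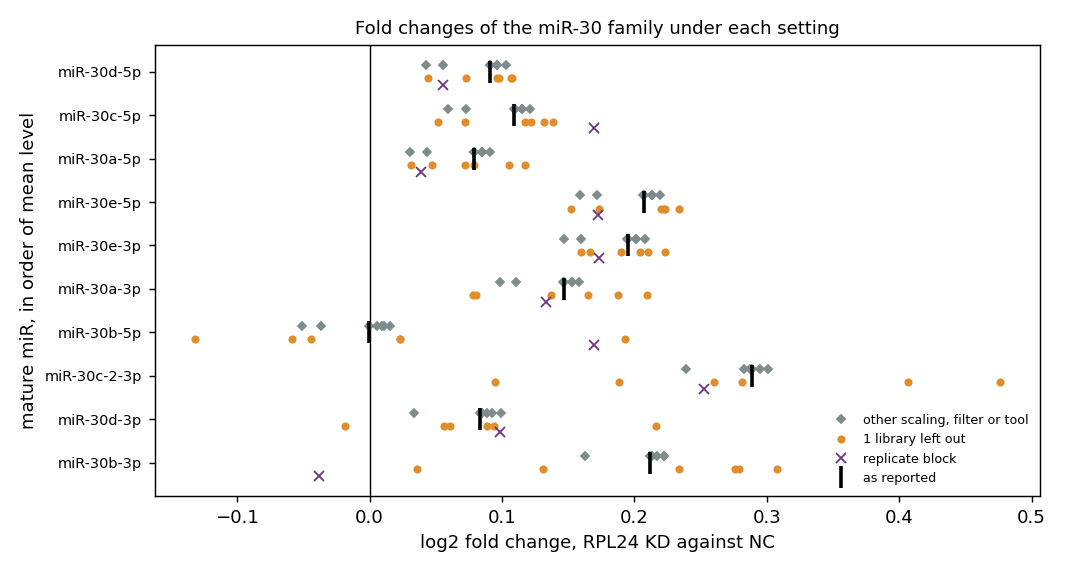
RPL24 KD against NC as log2 fold change (x axis) for each member as reported (black bars), under other scalings, filters or tools (grey diamonds), with 1 library left out (orange circles) and with the replicate number as a block (purple crosses). MiR-30e-5p stays between 0.15 and 0.23 and miR-30e-3p between 0.15 and 0.22, while miR-30b-5p lies on both sides of 0.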

How the data were processed

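The authors checked the reads with FastQC (0.11.9 in the submitters' processing notes), used Flexbar for trimming and filtering and miRExpress for alignment to miRBase microRNAs, and deposited raw read counts per mature miR and library, without normalization. Their comparison used DESeq2. Here libraries were grouped by their labels, and 0 columns of counts were left out. The test was edgeR 4.0.16 in R 4.3.3, the quasi-likelihood method of edgeR 4 with TMM, filterByExpr (minimum count 10) and Benjamini-Hochberg adjustment over all tested miRs. Standard errors and intervals follow from the F statistic. Arm ratios were tested with limma 3.58.1 over all hairpins, arms being paired by name. DESeq2 1.42.0, other scalings and filters, a replicate block and leaving out each library were alternatives. Depth was from 398721 to 611745 counts a library. The tests were tested on simulated data. Locations came from GENCODE 29 and sequences from RefSeq.

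The named miRs were all 10 members, miR-30c-1-3p, the 3 miRs most like the summed guides and any miR sharing a seed with a member. MiR-365a-3p and miR-365b-3p were named after seeing the data, for their equal values. The members, lists and tests were chosen with earlier results of these data known.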

Additional observations from a re-analysis of the deposited data

How the results depend on the processing

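The legacy method of edgeR and the sum of miR-30a-5p and miR-30e-5p were added after seeing the data. The number of DE miRs, 18, was 31 without a filter, 28 under total counts, 34 with robust edgeR and 57 with the replicate block, and from 0 (without RPL24 KD replicate 1, with 56 at an unadjusted p under 0.05) to 36 (without the unnumbered NC library) when 1 library was left out. The number of DE members, 0, was 1 with robust edgeR, miR-30e-5p (adjusted p = 0.0335), and 3 with the replicate block, which uses the 4 numbered libraries, namely miR-30e-5p (adjusted p = 0.0163), miR-30e-3p (adjusted p = 0.0499) and miR-30c-5p (adjusted p = 0.0117, edgeR). It was 0 in each of the other 12 settings. The deviations of same-numbered libraries had a correlation of -0.022 over the 360 miRs and of -0.21 over the 166 abundant miRs. Since so few libraries carry a number, these values cannot show whether same-numbered libraries were handled together. Of the arm ratios, 0 miR-30 hairpins were called in each of 10 settings. The log2 ratio of the summed guides, 0.11, was 0.058 with total counts and from 0.088 to 0.13 without 1 library.

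Directions turned only where values were near 0 or counts few. The log2 fold change of miR-30b-5p was 0.0056 with RLE, 0.0095 without a filter, 0.015 with DESeq2, 0.011 with legacy edgeR, 0.17 under the replicate block, and -0.13 to 0.19 over the fits without 1 library. That of miR-30b-3p was -0.038 with the replicate block, and without 1 library that of miR-30d-3p was from -0.018 to 0.22 and that of miR-30c-1-3p from -0.32 to 0.011. The arm ratio difference of miR-30b was -0.23 under the replicate block. Over the fits without 1 library it was -0.19 to 0.46, that of miR-30c-2 from -0.041 to 0.43, that of miR-30d from -0.12 to 0.13 and that of miR-30e from -0.033 to 0.0062. The cause was not tested. Depth limits the passengers with under 100 counts.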

Other observations

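Guide lists of other seed families are given from the same edgeR fit, in which DE was called in 5.00% of all tested miRs and an unadjusted p below 0.05 found in 23.6%. Of the let-7/miR-98 guides 0 of 9 tested were DE, with 2 at an unadjusted p under 0.05 and a median log2 fold change of 0.032. Of the miR-26 guides 0 of 2 were DE, with 1 at an unadjusted p under 0.05 (median -0.062), and of the miR-181 guides 0 of 3 tested and 2 (median 0.087). Of the guides with the miR-17 seed 0 of 6 were DE, with 0 at an unadjusted p under 0.05 (median 0.012). The miR-30 guides had 0 of 5 DE, 1 with an unadjusted p under 0.05 and a median of 0.091. DESeq2 called 1 of the let-7/miR-98 guides and 0 of each of the other lists. Differences between the lists were not tested.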
